A study of Mus musculus with 12 samples.

Results

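The splicing events described here are those that the deposited table of transcript structures lists in its 5 classes with an X before the name, taken as events whose outer boundaries match only approximately between the transcripts compared. They were taken by class name alone. The ON and OFF forms of an event were paired by gene, start and end, where ON is the form that includes the exon or keeps the intron. They came to 4418 of the 126309 regions in the table (3.498%), in 2346 of 22377 genes (10.5%). By class, 1630 were skipped exons (XSKIP), 369 were skipped runs of exons (XMSKIP), 1109 were retained introns (XIR) and 210 were retained runs of introns (XMIR), which made 3318 events with an ON and an OFF form. The remaining 1100 were alternative exon ends (XAE), in 423 genes, where each form is compared with the rest of its gene. The exact counterparts are SKIP, MSKIP, IR, MIR and AE, in the same table. The sources used here do not give the definition of the classes, so their structure was measured against the annotation and is given below.

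The series holds 12 libraries of total RNA from mouse colon, 4 labelled control, 4 labelled DSS and 4 labelled FGF1. DSS is dextran sulfate sodium, a polymer that damages the colon lining when mice drink it, and FGF1 is fibroblast growth factor 1. The group labelled DSS has this label as its treatment and in its descriptions, while its titles carry a number in place of a treatment name, whose meaning is not given. Strain, age, dose and duration are not in the labels, and neither is whether DSS was given to the animals labelled FGF1. Nothing in the labels says that the 4 libraries of a group came from separate animals, so the p-values below measure only the spread between these libraries. In whole tissue, fewer cells of a type and less RNA per cell cannot be told apart.

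During splicing, introns are cut out between a donor site, which nearly always begins with GT, and an acceptor site, which ends with AG. A cell can skip an exon, leave an intron in place, or use a neighbouring donor or acceptor so that an exon starts or ends a few bases earlier or later. When the last of these happens at the exon beside a skipped exon, or a transcript starts or ends inside a flanking exon, the skipped and the inclusive transcript no longer share their outer boundaries. Retained introns often carry stop codons, and such transcripts can stay in the nucleus or be degraded. Introns of some genes also carry small nucleolar RNAs (snoRNAs), which guide chemical modification of ribosomal RNA.

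The approximate skipped exons were short, with a median of 101 bases (quartiles 64 and 144), against 104 for the exact ones. These sets overlap, since 1011 XSKIP exons (62.0%) were also listed as SKIP. Their length was a multiple of 3 in 37.9%, against 46.9% of SKIP exons. Among the 628 that lay wholly in coding sequence the share was 43.3%, against 56.5% of exact ones. For the net length difference between the ON and OFF forms it was 51.0%. There the shift of the flanking boundary was added to the exon's length, or subtracted where the OFF form held the extra bases. The shift itself, called the offset here, had a median of 42 bases in XSKIP, 69 in XMSKIP, 112 in XIR and 109 in XMIR. Offsets of at most 10 bases made up 28.4% of XSKIP (463 events) but 11.99% of XIR (133 events), and 52.9% of XIR offsets were over 100 bases (587 events). Of the XSKIP events, 731 differed at the exon before the skipped exon, 675 at the exon after it, 99 at both, and 125 had an offset of 0.

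**Figure D1:**
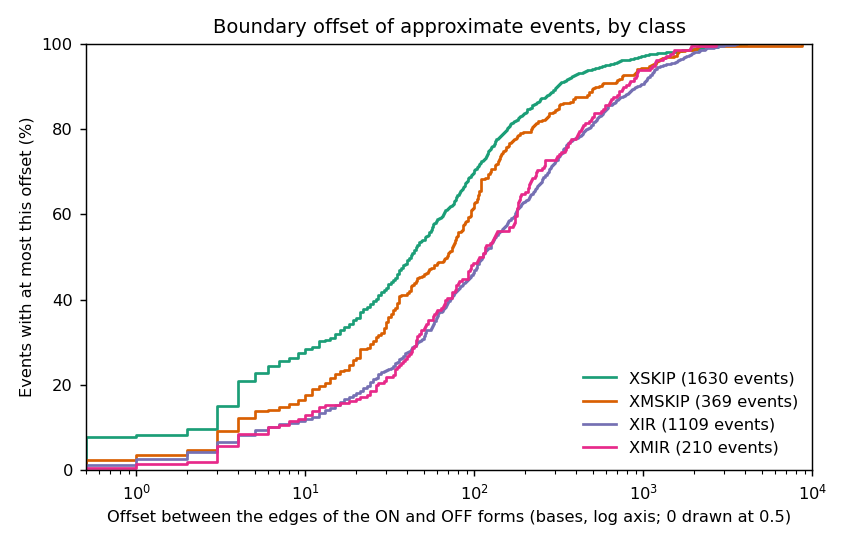
Offsets of the approximate-boundary ON/OFF events, by class. The horizontal axis is the offset in bases on a log scale, each line is a class, and the height of the line is the percentage of its events with at most that offset. XSKIP rises first, with 28.4% of events at 10 bases or less, and XIR and XMIR reach their midpoints at 112 and 109 bases.

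The bases that lie between the alternative boundaries carried splice site letters. They could be read from an annotated transcript for 1389 of the 1406 XSKIP events with an offset on a single side (98.8%). Where the exon after the skipped exon moved, these bases ended in AG in 658 of 672 events (97.9%), so that a second acceptor stood there. Where the exon before it moved, they began with GT in 678 of 717 events (94.6%), and with GT or GC in 705 (98.3%). A shift of exactly 3 bases at an acceptor occurred in 83 events, and all 83 had the letters NAG. Of these, CAG made up 56 (67.5%), AAG 21 (25.3%), TAG 5 and GAG 1. NAG opened 509 of 9362 exons that follow an exact skipped exon (5.44%), with each exon counted once, whereas the shifts are counted per event. Shifts of 4 bases showed the same letters, with AG at the end of 47 of 47 acceptor shifts, against 532 of 9361 exact exons (5.68%), and GT at the start of 37 of 44 donor shifts (84.1%), against 143 of 9294 (1.54%). At an acceptor the moving bases are the end of the shorter form's intron, and at a donor they are its start. AG and GT are therefore largely what the annotated boundaries require, and the values for exact exons make no test of them. These matches are a description of the letters and not of what the splicing machinery used.

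The 3-base acceptors are shown for Gnas, which encodes the stimulatory G protein alpha subunit, Prr15l, Rpl22, a ribosomal protein, Dram2, a membrane protein of lysosomes, and Ctnnd1, which encodes p120 catenin. All but Ctnnd1, which belongs to a fixed list, were picked after their values were seen, as abundant examples of each triplet. Each line gives the first 24 bases of the exon after the skipped exon, 5′ to 3′, with its GRCm38 position, and the capitals mark the 3 bases that only the longer form of that exon contains. The sequences come from the GENCODE vM21 transcripts.
Gnas, chr2:174341650-174341673, plus strand: TAGtgagaaggccactaaagtgca
Prr15l, chr11:96934515-96934538, plus strand: CAGaaagctctgcctgggtttagg
Rpl22, chr4:152330004-152330027, plus strand: GAGcagttcctccaggagagaatc
Dram2, chr3:106555164-106555187, plus strand: AAGacctgtctgaaatgtggtggt
Ctnnd1, chr2:84602880-84602903, minus strand: CAGaagatttagcgccactctacc

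The longer form belonged to the transcript that skips the exon in Gnas, Rpl22 and Dram2, and to the one that includes it in Prr15l and Ctnnd1. Over all 83 events, the longer form was the skipping one in 40 (48.2%).

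The following short exons carry results described further on: the 12-base exon of Vps29, the 8-base exon of Phgr1 and the 28-base exon of Gas5. For the first of these the moving bases are printed as well, because they hold the alternative acceptor in full, and for Phgr1 because they hold the alternative donor.
Vps29 exon, chr5:122356794-122356805, plus strand: gctgggcacaga
Vps29 bases present in the ON form alone, chr5:122360013-122360028, plus strand: ttggtgttggtactag
Phgr1 exon, chr2:118775781-118775788, plus strand: gtggcaag
Phgr1 bases present in the OFF form alone, chr2:118774693-118774697, plus strand: gtaag
Gas5 exon, chr1:161037288-161037315, plus strand: gtacaaataatggtttgaataaagaaag

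The Vps29 exon is coding. Its ON form holds the 12 bases of the exon and the 16 moving bases, together 28, which is no multiple of 3. The 16 moving bases end in AG, while the 5 moving bases of Phgr1 begin with GT.

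Approximate introns looked like exact ones in their letters, but many are the same introns. Of the 1109 XIR introns, 692 (62.4%) were also listed as IR, so the sets compared here overlap. Of 1089 XIR introns that could be read, 1064 ran from GT to AG (97.7%) and 17 from GC to AG (1.56%). Among the IR introns these counts were 2766 (97.5%) and 49 of 2836. The median GC content was 52.6% in XIR and 52.5% in IR, and the median length was 202 against 233.5 bases. Capitals mark the first and last 2 bases in the 4 introns below. Paxx, Sirt7 and H2-T3 stand for those with the smallest p-values, Fth1 for the most abundant ones.
Paxx, chr2:25460075-25460166, minus strand: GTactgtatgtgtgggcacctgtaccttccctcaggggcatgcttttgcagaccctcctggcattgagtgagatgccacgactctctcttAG
Sirt7, chr11:120620884-120620956, minus strand: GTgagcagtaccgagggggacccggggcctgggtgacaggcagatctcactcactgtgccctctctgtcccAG
H2-T3, chr17:36189453-36189600, minus strand: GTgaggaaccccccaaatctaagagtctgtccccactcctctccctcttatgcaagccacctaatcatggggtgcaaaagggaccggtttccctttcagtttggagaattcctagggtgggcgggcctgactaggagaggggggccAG
Fth1, chr19:9984328-9984559, plus strand: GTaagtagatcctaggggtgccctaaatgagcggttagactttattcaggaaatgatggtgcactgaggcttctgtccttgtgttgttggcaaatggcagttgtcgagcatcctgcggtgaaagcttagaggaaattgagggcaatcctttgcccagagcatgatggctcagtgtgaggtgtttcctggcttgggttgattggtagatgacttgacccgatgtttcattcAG

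The approximate boundary of an intron event was mostly the end of a transcript. In 813 of 1097 XIR events (74.1%) and 159 of 209 XMIR events (76.1%) the differing edge was the annotated start or end of an OFF transcript, and in 0 events was it that of an ON transcript. Transcripts annotated as retained intron were the only ON transcripts in 838 XIR events (75.6%), near the 78.2% of IR events. For XMIR this was 85.7%, against 86.7% for MIR. A protein-coding OFF transcript was present in 408 XIR events (36.8%), against 84.7% of IR events.

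Alternative exon ends of the approximate class had a median length of 140 bases and lay a median of 76 bases from the nearest other form, against 51 for AE. That step was a multiple of 3 in 35.9%, against 41.5% for AE, and was 3 bases in 3 of 566 pairs. A protein-coding transcript carried 47.8% of the forms, against 67.6% of AE forms. Printed here are the 50-base exon of Paxx, and the long forms of the splicing factors Hnrnpk and Srsf1, where lower case is the short form and capitals are the bases that only the long form has.
Paxx, chr2:25460445-25460494, minus strand: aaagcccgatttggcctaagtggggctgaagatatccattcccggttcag
Hnrnpk long form, chr13:58393692-58393868, minus strand: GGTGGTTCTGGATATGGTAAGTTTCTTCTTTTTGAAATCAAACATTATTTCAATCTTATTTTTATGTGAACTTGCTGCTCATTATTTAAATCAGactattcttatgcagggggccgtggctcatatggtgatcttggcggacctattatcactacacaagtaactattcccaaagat
Srsf1 long form, chr11:88049043-88049215, plus strand: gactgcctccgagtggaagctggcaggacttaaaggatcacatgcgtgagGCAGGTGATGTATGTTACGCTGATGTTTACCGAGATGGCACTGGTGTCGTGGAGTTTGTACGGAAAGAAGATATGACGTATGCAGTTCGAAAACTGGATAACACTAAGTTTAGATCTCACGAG

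Most genes had a single event, 1421 of 2346 (60.6%). The genes with the most, named after the counts were seen, were Gas5 with 19, Rian with 18, Taf1d with 15, and Nop56, Snhg5 and Tmem234 with 12 each. Gas5, Rian, Taf1d, Nop56 and Snhg5 are host genes of snoRNAs. An annotated snoRNA lay inside the intron in 26 of 1109 XIR events (2.34%, in 13 genes) and inside the run of introns in 17 of 210 XMIR events (8.10%, in 9 genes), against 36 of 2866 IR (1.26%) and 20 of 630 MIR events (3.17%). The 18 tested XIR events with a snoRNA had a median retained share of 27.2%, against 69.98% without, and the 8 tested XMIR events 29.8% against 69.6%. Exact IR events had the same direction, with 4.27% in the 31 tested events with a snoRNA and 14.9% without. In MIR events the medians were close, at 15.99% (18 tested events) and 16.35%. This comparison was added after the counts per gene were seen, and it has no test. Of the ON/OFF events, 95.03% lay in protein-coding genes and 2.59% in genes annotated as processed transcripts, which include Gas5 and Snhg1.

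The values are FPKM, read fragments scaled to the transcript's length and the library's size, so that levels of transcripts of unequal length can be set side by side. The share of an event is 100 times the summed FPKM of its ON transcripts over the summed FPKM of ON and OFF transcripts in a library. The read depth of the libraries is not known from these files, so no counting interval could be given. The libraries listed 45795 transcripts (DSS 3) to 54313 (control 3), and 2319 (DSS 3) to 2859 (control 3) approximate events and exon end forms. The markers of all 10 cell types checked were listed, with S100a8, S100a9, Ly6g and Retnlg (neutrophils) and Adipoq and Plin1 (adipocytes) at 0 in some libraries. As the mean log2(FPKM + 1) of each list, epithelial markers ran from 8.64 to 8.80 in control, 8.74 to 8.99 in DSS and 8.80 to 9.02 in FGF1 libraries, smooth muscle markers from 7.07 to 8.76, 4.83 to 6.67 and 5.80 to 8.47, and fibroblast markers from 4.78 to 5.2, 1.43 to 3.38 and 3.19 to 4.59. Neutrophil markers ran from 0.07 to 0.51 in control, 0.50 to 3.63 in DSS and 0.57 to 1.40 in FGF1 libraries. Endothelial markers (2.78 to 3.09 in control, 0.76 to 2.09 in DSS and 1.69 to 2.46 in FGF1 libraries), B and plasma cell markers (4.72 to 5.75, 2.37 to 2.96 and 2.74 to 4.17) and macrophage markers (3.05 to 3.78, 1.40 to 2.32 and 2.05 to 3.30) also lay lower in all DSS than in all control libraries. Neuron and glia markers too were lower there without overlap (2.06 to 3.33 against 1.00 to 2.00), while T cell and adipocyte markers overlapped. These are means of lists, and single genes did not all follow them. In the B and plasma cell list, Cd79a had 0.507 to 1.58 FPKM in control, but 3.19, 0.405, 2.42 and 0.110 FPKM in the DSS libraries. These marker differences run along the same groups as the comparisons below. With the smooth muscle mean as a covariate the counts of called events were 0, as they were without it. Such a count cannot show the part of smooth muscle, and the part of the other markers was not tested.

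**Figure D2:**
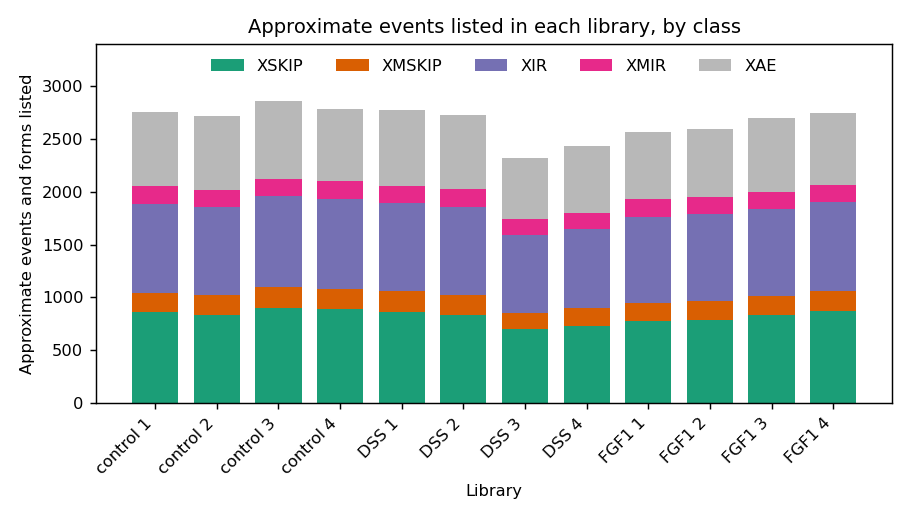
Approximate-boundary events and exon end forms listed above 0 in each library. The vertical axis counts events, each bar is a library and its colours are the 5 classes. DSS 3 (2319) and DSS 4 (2436) have the shortest bars of the 12 libraries.

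XSKIP events were listed 871 ± 30.6 times in control, 781 ± 75.5 in DSS and 818 ± 44.1 in FGF1 libraries (SD, n = 4). For XIR these numbers were 847 ± 11.2, 790.5 ± 53.2 and 823.5 ± 9.68. The smallest adjusted p of the approximate classes was 0.357 (exact permutation test, two-sided). The smallest unadjusted p that 4 against 4 libraries can give is 0.0286, which would be 0.429 for 1 class alone over the 15 tests, so no single class could pass. Among the exact classes, the listed SKIP events numbered 6442.5 ± 147 in control, 5617 ± 566 in DSS and 5906 ± 209 in FGF1 libraries, and SKIP, MSKIP and IR counts were lower in DSS and in FGF1 than in control without overlap (unadjusted p = 0.0286 each, exact permutation test).

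The first question was whether approximate events differ from exact ones in how much of the ON form the colon contains. Of the 3318 ON/OFF events, 1375 (41.4%) had both forms listed and reached 1 FPKM over both forms in all 12 libraries: 616 XSKIP, 157 XMSKIP, 514 XIR and 88 XMIR, in 1023 of 2180 genes. Of the 1943 others, 627 were under 1 FPKM in every library, and 754 had neither form above 0 in some library. Of the 1100 exon ends, 916 (83.3%) entered the fit.

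As medians over all tested events, approximate events held more of the ON form in every ON/OFF class. The median retained share of XIR events was 71.4% ± 1.31 (SD over 12 libraries, range 69.3 to 73.8), while that of exact IR events was 12.9% ± 1.16 (10.9 to 15.3). For XMIR the median was 68.4% ± 5.06 against 13.7% ± 1.64 for MIR. Skipped exons were included at a median of 74.0% ± 2.12 in XSKIP and 49.9% ± 1.45 in SKIP, and skipped runs at 98.0% ± 0.881 and 93.0% ± 1.63. Exon ends went the other way, since an XAE form had a median of 4.95% ± 0.647 of its gene and an AE form 16.4% ± 0.722. All 5 differences (58.5, 54.7, 24.1, 5.03 and -11.5 percentage points, in the order given) had the same sign in 12 of 12 libraries. The adjusted p was 0.000488 in an exact two-sided sign-flip test over libraries, the smallest that 4096 sign flips allow. The libraries share the same events and annotated transcripts, so this p measures only how the difference repeats between libraries. It is no test of approximate against exact events in general.

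**Figure D3:**
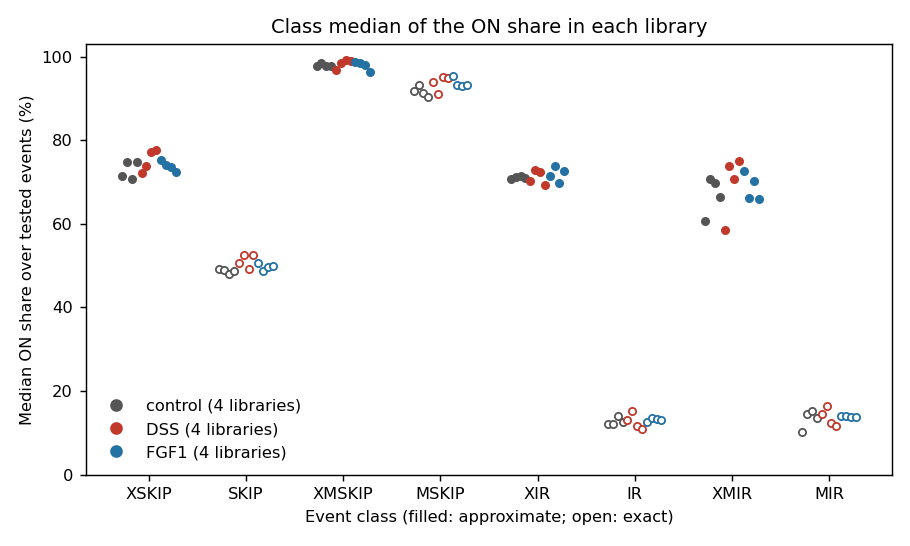
Median ON share of approximate (filled) and exact (open) events by class. The vertical axis is the median share over tested events in percent, and each point is a library, coloured by group. XIR medians lie between 69.3 and 73.8%, all above the IR medians of 10.9 to 15.3%.

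The level behind these shares differed in both forms. In XIR events the median level was 3.18 FPKM for the retaining and 1.44 FPKM for the spliced form, and in IR events it was 1.57 and 7.59 FPKM. The kind of OFF transcript went along with the share. XIR events with a protein-coding OFF transcript had a median share of 57.2% (205 events) and those without had 73.3% (309 events), while IR events had 12.4% (1828) and 77.1% (205). Among XSKIP events the median was 40.1% with a protein-coding OFF transcript (433) and 96.4% without (183), and among SKIP events 17.2% and 97.2%. Where the ON transcripts of an XSKIP event included none that codes for protein, the median share was 9.30% (147 events), against 86.8% with one (469 events). For SKIP events these medians were 2.03% (1596) and 83.6% (5177). Where both forms included a protein-coding transcript, the median was 61.6% in XSKIP (333 events) and 53.2% in SKIP (3750 events).

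The exon that defines an XSKIP event was often also listed as an exact event, with another set of transcripts. This held for 1011 XSKIP exons (62.0%), 692 XIR introns (62.4%), 134 XMIR runs (63.8%) and 132 XMSKIP runs (35.8%). Tested XSKIP events with such an exact counterpart had a median share of 49.6% (342 events) and those without had 93.1% (274). For 279 exons both kinds passed the filter, with a median share of 50.1% as XSKIP and 45.3% as SKIP. The share of an exon differed between its 2 definitions by a median of 3.76 points. It differed by over 20 points in 60 exons (21.5%), of which 31 were higher and 29 lower as XSKIP. Shares also went with the offset. XSKIP events with offsets of at most 10 bases had a median of 41.0% (212 events) and those over 100 bases 79.9% (167), and XIR events 51.3% (72) and 74.8% (273).

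As a median over events, the spread between libraries of a group was larger for intron events than for exon events. The median SD within a group was 4.59 points for XSKIP, 2.01 for XMSKIP, 7.32 for XIR, 8.50 for XMIR and 3.56 for XAE, against 3.61, 3.71, 5.55, 5.82 and 5.38 in the exact classes. Large spreads did not follow this order. An SD over 20 points was found in 12.7% of XSKIP, 10.8% of XMSKIP, 9.14% of XIR, 10.2% of XMIR and 6.22% of XAE. In SKIP, MSKIP, IR, MIR and AE it was found in 11.8%, 9.95%, 9.4%, 8.04% and 11.5%. The SD was not adjusted for the height of the share, so the order of the medians may partly reflect where the shares lie.

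The second question was whether the treatment groups differ. The XSKIP median was 72.9% ± 2.17 in control, 75.2% ± 2.65 in DSS and 73.8% ± 1.12 in FGF1 libraries (n = 4), the XIR median 71.1% ± 0.286, 71.2% ± 1.72 and 71.9% ± 1.67, and the XMIR median 66.9% ± 4.57, 69.6% ± 7.62 and 68.7% ± 3.14, with a smallest unadjusted p of 0.257 and a smallest adjusted p of 0.8 (exact permutation test). A single class at the smallest p that 4 against 4 libraries allow would reach an adjusted p of 0.343 over the 12 tests, so this family could not have called 1 class alone.

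No single approximate event passed the limma test. At an adjusted p under 0.05 (limma on the log2 ratio of ON to OFF with 0.5 FPKM added to each), 0 of 1375 ON/OFF events were called in DSS against control, where 0.0% of all 11629 approximate and exact events were, and likewise 0 in FGF1 against DSS (0.0%) and 0 in FGF1 against control (0.0%). An unadjusted p under 0.05 was found for 141 events in DSS against control (62 higher, 79 lower in DSS), 10.3% of those tested, against 9.88% of all events. In FGF1 against DSS it was found for 92 events (49 higher, 43 lower), 6.69%, against 6.58%, and in FGF1 against control for 89 events (49 higher, 40 lower), 6.47%, against 5.69%. The libraries of the 2 groups did not overlap in the share in 53 of the 1375 events in DSS against control (3.85%, against 3.48% of all 11629 events), in 40 in FGF1 against DSS (2.91%, against 2.77%) and in 42 in FGF1 against control (3.05%, against 2.67%). These shares of the approximate events lie near those of all events.

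Of 916 XAE forms, 0 were called in any of the 3 comparisons (0.0%, 0.0% and 0.0% of 8529 forms). Unadjusted p-values under 0.05 were found for 85 forms in DSS against control (58 higher, 27 lower), 9.28%, against 8.64% of all forms, for 50 in FGF1 against DSS (5.46%, against 6.48%) and for 48 in FGF1 against control (5.24%, against 5.14%). Forms without overlap between the groups numbered 28 (3.06%, against 3.28%), 25 (2.73%, against 3.08%) and 25 (2.73%, against 2.74%).

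The 95% interval of an ON/OFF event had a median half-width of 0.87 on the log2 scale, or 1.83-fold, and of an XAE form 0.81, or 1.75-fold. These half-widths are for a single event before any adjustment, and they varied between events. The mean share differed by over 20 points in 93 ON/OFF events between DSS and control (6.76%), in 67 between FGF1 and DSS (4.87%) and in 65 between FGF1 and control (4.73%). None of these differences passed the test after adjustment, and the genes below are those with the smallest p-values.

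Paxx, a factor of DNA end joining, had the retained intron with the smallest p among XIR events of DSS against control. The retained share was 15.7, 21.5, 18.05 and 29.8% in the control libraries, 49.8, 56.6, 72.3 and 51.3% in DSS and 29.3, 29.3, 18.8 and 31.1% in FGF1. All 4 DSS libraries lay above the 8 others. The spliced form differed more between the groups than the retaining one. Its level was 2.41 to 4.90 FPKM in control, 0.737 to 1.41 in DSS and 2.65 to 4.11 in FGF1 libraries, and the retaining form ranged from 0.448 to 1.43, 0.962 to 2.35 and 0.695 to 1.71 FPKM. Among the spliced transcripts, Paxx-208 was listed at 0 in all 4 DSS libraries, and at 1.74 to 2.76 FPKM in control and 1.02 to 2.39 FPKM in FGF1 libraries. The log2 ratio was higher in DSS than in control by 1.78 ± 0.30 (SE, 95% interval 1.13 to 2.43), with an adjusted p of 0.0967 by limma, and lower in FGF1 than in DSS by 1.45 (-1.45 ± 0.30, adjusted p = 0.341). The exact IR event of the same intron, built from other transcripts, gave 2.56 to 25.8% in control, 4.61 to 24.9% in DSS and 8.89 to 40.0% in FGF1 libraries, and these overlap.

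The 50-base exon end of Paxx gave a further contrast in the same gene, but no separate evidence. The rest of the gene, against which it is set, contains Paxx-208, which is also part of the spliced form above. This exon end had a share of the gene of 14.8, 25.3, 11.6 and 12.5% in control, 32.2, 37.7, 39.3 and 39.2% in DSS and 12.8, 21.5, 25.6 and 15.1% in FGF1 libraries. Again the DSS libraries stood above all others, by 1.37 ± 0.31 on the log2 scale against control (adjusted p = 0.322) and by 1.18 against FGF1 (adjusted p = 0.635, limma). The level of the whole gene was 7.25 ± 1.16, 6.19 ± 1.21 and 7.70 ± 0.826 FPKM in control, DSS and FGF1 libraries.

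Sirt7, which encodes an NAD-dependent deacylase of the nucleolus, had a 73-base intron among the smallest p-values of both comparisons with control. The share was 18.6, 23.4, 21.0 and 23.3% in control, 5.502, 9.06, 4.14 and 4.02% in DSS, and 3.00, 7.36, 4.07 and 17.0% in FGF1. All 4 control libraries lay above the 8 others, and FGF1 4 was the nearest to them. The retaining transcript had 1.74 to 2.59 FPKM in control, 0.502 to 1.15 in DSS and 0.320 to 2.10 in FGF1 libraries. The log2 ratio differed by -1.72 ± 0.35 between DSS and control (adjusted p = 0.158) and by -1.38 ± 0.35 between FGF1 and control (adjusted p = 0.697), comparisons that share their control libraries. The exact event of this intron ran from 28.3 to 46.0% in control, 27.2 to 48.4% in DSS and 42.3 to 53.7% in FGF1.

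Rnpepl1, an aminopeptidase-like gene, had a run of introns whose retained share was 46.5, 70.1, 44.1 and 69.6% in control, 80.8, 93.0, 86.1 and 88.4% in DSS and 77.5, 78.9, 68.8 and 80.9% in FGF1 libraries. The DSS libraries were above all control libraries, and FGF1 3 lay within the control range. The difference of DSS from control was 2.08 ± 0.42 (adjusted p = 0.158, limma). As an exact MIR event, the same run had 70.7 to 78.5% in control and 46.0 to 76.6% in DSS libraries.

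**Figure D4:**
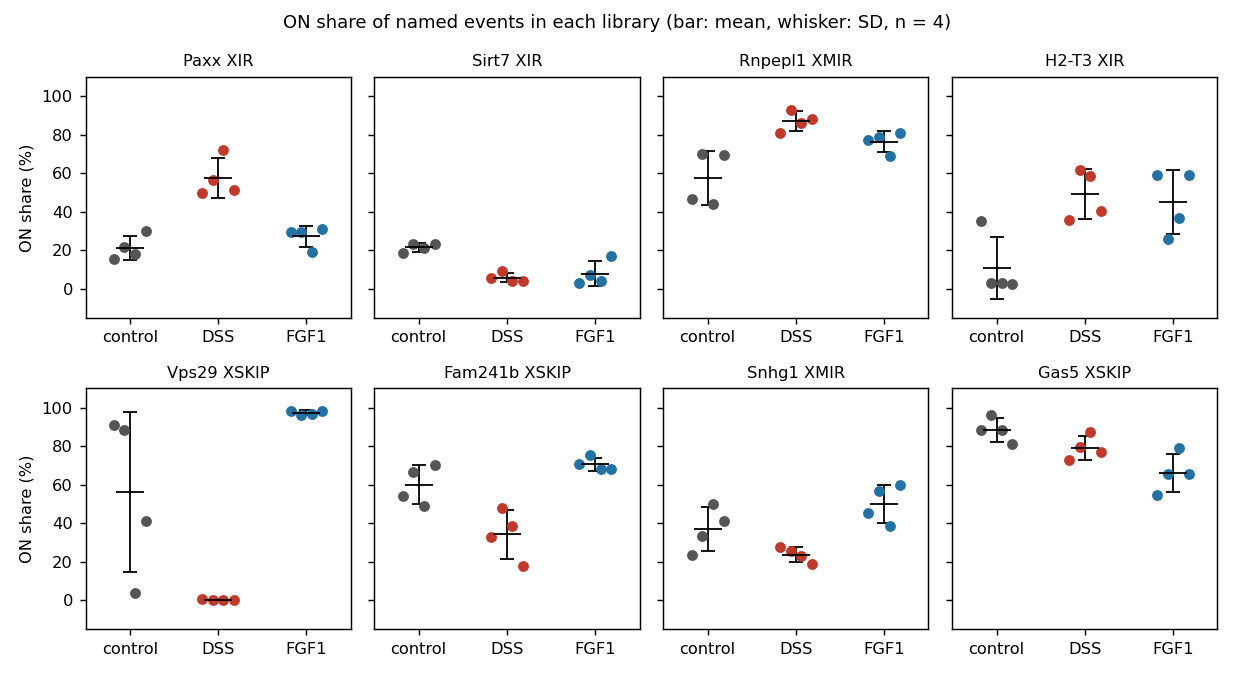
Share of the ON form in each library for named approximate-boundary events. The vertical axis is the share in percent, each point is a library, and the bar and whisker are the mean and SD of the 4 libraries of a group. In Paxx the 4 DSS libraries (49.8 to 72.3%) lie above the rest, and in Vps29 the 4 DSS libraries are at or below 0.486%.

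Vps29 encodes a subunit of retromer, the complex that returns membrane proteins from endosomes, and its 12-base exon gave the widest range of any named event. The transcript with the exon and the alternative acceptor, Vps29-204, stood at 15.2, 14.5, 0.447 and 0.502 FPKM in control, 0.00737, 0.00382, 0 and 0 in DSS, and 15.5, 11.8, 15.9 and 13.4 in FGF1 libraries. The share was thus 91.2, 88.3, 3.76 and 41.2% in control, 0.486, 0.134, 0 and 0% in DSS and 98.4, 96.1, 96.5 and 98.4% in FGF1. Control libraries divided into 2 high and 2 low, and the groups did not overlap. The log2 ratio of FGF1 over DSS was 6.32 ± 1.16 (95% interval 3.77 to 8.87, adjusted p = 0.221, limma), and that of DSS over control -2.68 ± 1.16 (adjusted p = 0.470). As the OFF form was low too, at 0.216 to 0.575 FPKM in FGF1 and 1.51 to 2.84 in DSS libraries, the size depends on the 0.5 FPKM added. The contrast of FGF1 with DSS passed the test when 0.1 FPKM was added (9.23, adjusted p = 0.0471), when the 4 control libraries were left out of the fit (adjusted p = 0.0003), and when control 3 alone was left out (adjusted p = 0.0143). The whole gene had 14.6 to 23.9 FPKM in control, 11.1 to 19.8 in DSS and 21.8 to 24.5 in FGF1. Vps29-208, outside the event, had 5.14 to 11.9 FPKM over all 12 libraries. The exact event of the exon also contains values near 0 in DSS (0 to 0.077%) and 55.0 to 70.05% in FGF1, with 67.6, 66.0, 6.73 and 3.61% in control.

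Fam241b had an exon of 79 bases with an offset of 0. Its share was 54.2, 66.5, 49.1 and 70.2% in control, 32.7, 47.7, 38.8 and 17.5% in DSS and 70.6, 75.2, 68.2 and 68.3% in FGF1 libraries. The DSS libraries lay below all others. FGF1 exceeded DSS by 2.02 ± 0.39 (adjusted p = 0.261, limma), and DSS stood 1.42 under control (-1.42 ± 0.39, adjusted p = 0.262). The OFF form had 6.88 ± 1.91 FPKM in DSS and 2.85 ± 0.816 in control libraries, while the ON form had 3.65 ± 1.51 and 4.23 ± 0.634. The exact event of this exon ran from 43.5 to 71.5% in control, 15.97 to 36.3% in DSS and 69.3 to 74.2% in FGF1. There too the DSS libraries lay below all others, so the contrast is not particular to the approximate event.

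Snhg1 is a non-coding host of snoRNAs, and 2 of them lie within the run of introns that its XMIR event keeps. The share was 23.5, 33.1, 49.8 and 41.2% in control, 27.6, 25.4, 22.9 and 18.8% in DSS and 45.4, 56.6, 38.5 and 59.6% in FGF1 libraries. FGF1 lay above DSS without overlap, by 1.42 ± 0.33 (adjusted p = 0.397, limma), and control spanned the gap between them. The spliced form stood at 1.93 ± 0.349 FPKM in control, 5.37 ± 1.74 in DSS and 2.54 ± 1.27 in FGF1. As an exact event the same run was kept at 2.82 to 11.1% in all libraries. Reads from the snoRNAs themselves, on the same strand, cannot be told from the intron.

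Gas5, another snoRNA host, included its 28-base exon at 88.5, 96.0, 88.3 and 80.9% in control, 72.9, 79.3, 87.6 and 76.8% in DSS and 54.5, 65.7, 78.8 and 65.6% in FGF1. FGF1 lay below control without overlap, by 1.35 on the log2 scale (-1.35 ± 0.33, adjusted p = 0.697, limma). The exact event of this exon stood at 97.7 to 99.6% in all libraries.

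H2-T3, a nonclassical class I major histocompatibility gene, kept its 148-base intron at 35.2, 3.11, 3.14 and 2.23% in control, 35.5, 61.9, 58.7 and 40.6% in DSS and 59.1, 25.7, 36.6 and 59.1% in FGF1 libraries. Control 1 lay apart from the 3 other control libraries and just under the lowest DSS library. The log2 ratio was higher by 3.41 ± 0.81 in DSS (adjusted p = 0.186) and by 3.17 ± 0.81 in FGF1 (adjusted p = 0.697, limma) than in control. The XAE form of the same transcript, H2-T3-208, repeats these values, at 33.8, 3.09, 3.12 and 2.23% in control, and is no separate evidence. Without control 1, this XAE form passed the test in DSS against control (4.17, adjusted p = 0.0305) and in FGF1 against control (3.83, adjusted p = 0.0498). Class I genes have near-identical copies, so the division of reads among them is uncertain.

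Wdr83, a WD-repeat scaffold protein, gave 2 events. The XAE form at chr8:85079581-85079707, carried by Wdr83-202 and Wdr83-204, took 56.0, 54.5, 63.0 and 62.8% of the gene in control, 20.6, 67.5, 18.1 and 61.0% in DSS and 4.40, 10.4, 12.6 and 17.1% in FGF1. All FGF1 libraries were below all others, while DSS divided into 2 near control and 2 between the groups. Wdr83-202 itself had 5.31 to 9.23 FPKM in control and 0.0096 to 0.697 in FGF1 libraries. FGF1 against control differed by -3.11 ± 0.64 (95% interval -4.52 to -1.70, adjusted p = 0.448, limma), with an adjusted p of 0.0414 when only these 8 libraries were fitted, and by 0.33 when only the event's own rows were used. In the XSKIP event of this gene the OFF form was listed only in DSS 1 (0.828 FPKM) and DSS 3 (0.520 FPKM), so its ratio follows the ON form, at 3.65 to 4.09 FPKM in control, 3.21 to 5.36 in DSS and 6.78 to 8.51 in FGF1 libraries (FGF1 over DSS 1.41 ± 0.23, adjusted p = 0.123).

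Hps4, a subunit of the complex that builds lysosome-related organelles, had a 508-base exon end at 36.0, 23.8, 30.1 and 22.5% of the gene in control, 10.3, 15.7, 11.9 and 7.18% in DSS and 40.8, 35.5, 25.5 and 20.7% in FGF1. The DSS libraries lay below all others, by 1.28 ± 0.31 from FGF1 (adjusted p = 0.597, limma).

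**Figure D5:**
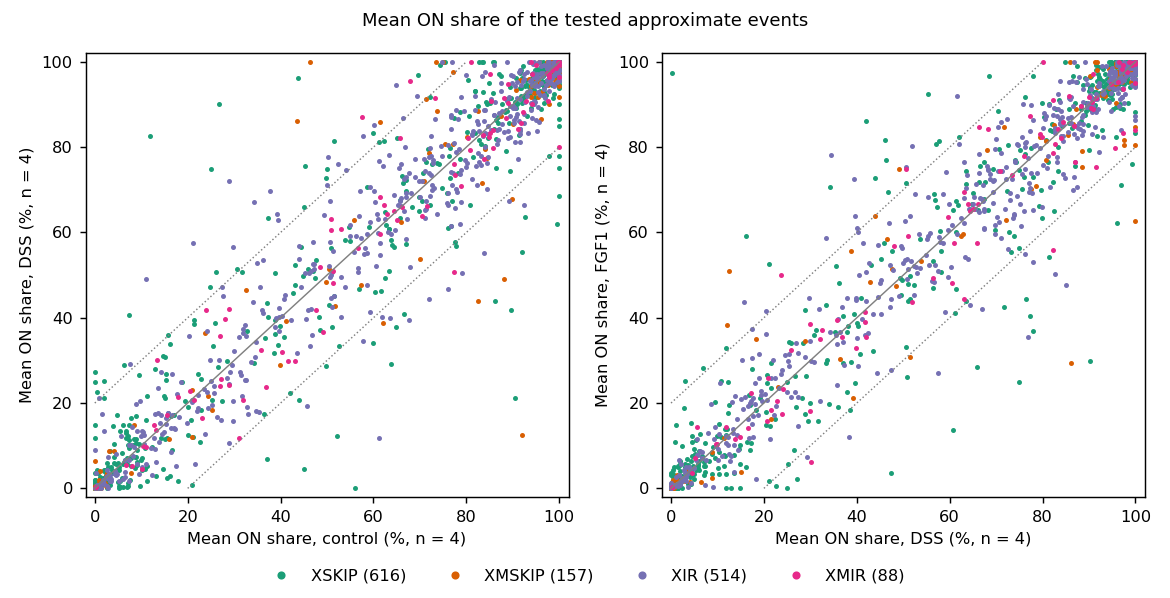
Mean ON share of each tested approximate-boundary ON/OFF event, DSS against control and FGF1 against DSS. Both axes are the mean share over 4 libraries in percent, each point is an event, the solid line marks equal shares and the dotted lines a difference of 20 points. Outside the dotted lines lie 93 events in DSS against control and 67 in FGF1 against DSS.

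In several events with small p-values the rarer form was mostly under the 0.5 FPKM that was added, and the ratio then follows the level of the abundant form. Hdac7, a class IIa histone deacetylase, had an ON share of 97.7 to 99.5% in control, 79.2 to 100% in DSS and 95.8 to 99.3% in FGF1 libraries, while its ON form had 4.10 to 6.11, 0.987 to 1.303 and 1.49 to 3.59 FPKM (DSS against control -1.75 ± 0.29, adjusted p = 0.0967, limma). Serping1, which encodes the C1 inhibitor, had 24.96 to 29.8 FPKM in control and 2.25 to 12.6 in DSS with an OFF form of at most 0.792 FPKM (-2.45 ± 0.53, adjusted p = 0.164, and -2.999 with 0.0259 when DSS 1 was left out), beside fibroblast marker means of 4.78 to 5.2 and 1.43 to 3.38, whose part in it was not tested. Fam214b had an ON share of 1.31 to 4.72% in control and 0.382 to 0.743% in FGF1 libraries (-1.15 ± 0.27, adjusted p = 0.697).

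The same holds for the exon ends of Pde9a, Hsp90aa1 and Relb, which encode a cyclic GMP phosphodiesterase, a cytosolic chaperone and an NF-kappaB subunit. The Pde9a form was listed in 2 libraries only (control 3 and DSS 3), against 46.6 to 62.1 FPKM for the rest of the gene in control and 110 to 226 in DSS. An antisense gene covers this form, and whether strand was used in counting is not given in the sources used here. The Hsp90aa1 form was at 0 in 11 of 12 libraries, and the Relb forms reached at most 0.516 FPKM.

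Among the most abundant XSKIP events, the inclusive form nearly filled 2 of 3. Myl6 and Myl9 encode myosin light chains, and their exons of 144 and 210 bases were included at 97.1 to 99.8% and 99.5 to 100% over the 12 libraries, at mean totals of 800 and 544 FPKM. Phgr1, a gene of the gut epithelium, had a mean total of 394 FPKM and was the exception: its 8-base coding exon was included at 5.02, 0, 23.6 and 0% in control, 33.1, 3.02, 7.21 and 5.34% in DSS and 19.6, 27.4, 14.8 and 8.78% in FGF1. The groups overlapped, and the control library values of 0 to 23.6% show the spread behind it (FGF1 against control 3.85 ± 1.58, adjusted p = 0.853, limma).

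The most abundant XMSKIP and XIR events differed in how far their share varied between libraries. Clca1, secreted by goblet cells, and Gpi1, an enzyme of glycolysis, included their runs of exons at 99.9% or more in all libraries, and an antisense-strand non-coding gene overlaps the Gpi1 run. The XMSKIP event of Myl6 lay at 1.09 to 11.2%. Fth1, the ferritin heavy chain, kept its 232-base intron at 16.8 to 53.9%, with pseudogene copies that make the value uncertain. Its exact event lay at 9.12 to 16.5%. Calm2, a calmodulin gene, stood at 99.6 to 100% as XIR, with an OFF form of at most 0.874 FPKM, and at 51.1 to 60.6% as an exact IR event.

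The most abundant XMIR events belonged to Srsf5, a serine- and arginine-rich splicing factor, Slc17a4, a transporter, and Dynlt1f, a dynein light chain with near-identical copies. Their runs of introns were kept at 5.89 to 17.1%, 18.3 to 28.0% and 4.23 to 12.1%. Among exon ends, the 129-base form of Actg2, the smooth muscle actin of the gut wall, made 97.9 to 99.8% of its gene, even though its level went from 118 FPKM in DSS 4 to 2034 FPKM in FGF1 3. The 22-base form of Lgals3, which encodes galectin-3, took 52.2 to 57.3% of 694 FPKM, with group means of 54.9% ± 1.88, 55.2% ± 2.19 and 54.5% ± 1.95 in control, DSS and FGF1. Its 95% interval for DSS against control was -0.46 to 0.49 on the log2 scale. Ckmt1, a mitochondrial creatine kinase, had 60.3 to 74.99%.

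The 3-base acceptors that entered the fit numbered 33, with a median mean share of 11.4%, and an unadjusted p under 0.05 in 1, 1 and 2 of them in DSS against control, FGF1 against DSS and FGF1 against control, where 9.88%, 6.58% and 5.69% of all events had one. The 45-base coding exon of Gnas, at a total of 177 FPKM, had a share in control libraries of 38.8% ± 22.4, against 50.5% ± 27.1 in DSS and 33.2% ± 16.2 in FGF1 (SD, n = 4). In Prr15l, at 125 FPKM, it was 6.59% ± 1.55, 6.65% ± 0.874 and 7.67% ± 1.20. Dram2 ran from 42.0 to 57.5% in control, 14.9 to 54.4% in DSS and 11.5 to 51.5% in FGF1 libraries (adjusted p = 0.852 for FGF1 against control, limma). The 87-base exon of Ctnnd1 stood at 87.1% ± 9.21, 97.1% ± 5.88 and 93.7% ± 8.33. In these 4 genes the groups overlapped.

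Splicing regulators are known to splice their own transcripts in more than one way, often with a retained intron or a poison exon. Of 40 such genes listed, 17 had an approximate ON/OFF event (34 events), and 25 events in 15 genes entered the fit. None was called in any comparison. At an unadjusted p under 0.05, 2 were lower in DSS than in control (retained introns of Ptbp1, -1.06, and Hnrnpk, -0.55), 2 were higher in FGF1 than in DSS (Hnrnpk, 0.53, and Clk1, 1.00), and 1 was lower in FGF1 than in control (Ptbp1, -1.23). Over all events 9.88%, 6.58% and 5.69% had such a p in these comparisons, so these counts of 25 are near or below the background. The median differences of the list were 0.00, -0.07 and -0.10 on the log2 scale, against -0.01, 0.02 and 0.01 over all tested approximate events.

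These regulators differed widely among themselves. Ptbp1, the polypyrimidine tract binding protein, had a retained share of 93.2 to 100% and Hnrnpk had 0.804 to 5.52%. Introns of Hnrnpl (30.4 to 56.4%), Srsf5 (53.6 to 77.4%), Srsf3 (17.4 to 28.3% in the 393-base intron) and Tra2a (26.8 to 82.2%) lay between. The 90-base exon of Hnrnph1 was included at 51.0 to 73.4%. The 70-base intron of Esrp2, an epithelial splicing regulator, was kept at 17.8 to 60.6%. Of the 8 exon ends, all in 4 genes, the 173-base form of Srsf1 printed above took 53.0 to 75.4% of its gene while its 50-base form was near 0. In Hnrnpk the 83-base form took 9.27 to 22.4% and the 177-base form 0.226 to 1.54%.

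Of 20 epithelial genes known for cell-type splicing, 6 had an approximate ON/OFF event (12 events), and 4 events in Ctnnd1, Macf1 and Magi1 entered the fit. None was called, and the median differences were -0.70, -0.00 and -0.51 in DSS against control, FGF1 against DSS and FGF1 against control. The 14-base exon of Macf1, a cytoskeletal linker, ranged from 0.00243 to 45.4% over the libraries. Of 25 muscle and matrix genes, 8 had an event (17 events) and 13 in 6 genes entered the fit. Again 0 were called, and at an unadjusted p under 0.05 the Myl6 XMSKIP event (-1.35) and the 107-base exon of Myl6 (-1.07, 5.34 to 23.8%) were lower in DSS than in control, while smooth muscle marker means were 4.83 to 6.67 and 7.07 to 8.76. The 78-base exon of Cald1, a muscle actin-binding protein, ran from 0.629 to 81.1%. Its 84-base exon ran from 18.9 to 65.2%. The 62-base exon end of Pdlim7 was higher by 0.57 in DSS and by 0.57 in FGF1 than in control at an unadjusted p under 0.05. Of 30 genes of colon epithelial function, 2 had an ON/OFF event in the fit, Ceacam1 (64.2 to 100%) and Clca1, and 1 had exon ends, Lgals3. None was called. Clca1 was lower in FGF1 than in control on the log2 scale (-0.998, adjusted p = 0.778, limma), with its OFF form at or below 0.102 FPKM in all libraries.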

How the data were processed

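RNA of 12 mouse colon libraries was measured, 4 each labelled control, DSS and FGF1. Per the submitters' processing notes, cutadapt 1.9, HISAT2 2.0.4, StringTie 1.3.4d and edgeR were used with build GRCm38, and the role of each tool is not given in the sources used here. The authors deposited the FPKM of each event's transcript in each library, with 0 where it was not listed, and read counts were not used here. Every value above 0 equalled its transcript's FPKM, and 38.4% of the zeros in approximate rows belonged to transcripts listed elsewhere in that library, so each form was the sum of its transcripts' FPKM taken from any row. Using the event's own rows alone was an alternative chosen after seeing the data. Transcripts were matched to GENCODE vM21 by ID (74068 of 74659), for types, lengths and sequences.

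Log2((ON + 0.5)/(OFF + 0.5)) was fitted for all approximate and exact events with limma 3.58.1 (R 4.3.3, variance trend, 12 libraries), where ON plus OFF reached 1 FPKM in every library and both forms were listed. For exon ends, the form was set against the rest of its gene. P-values were adjusted by Benjamini-Hochberg over all 11629 ON/OFF events or 8529 end forms, and a call needed an adjusted p under 0.05. Class medians and listed counts were compared by exact permutation tests, two-sided. The limma script was tested on simulated data. Read depth is unknown from these files. Alternatives were other pseudocounts and filters, the share itself, no variance trend, a replicate block, only 8 libraries, a covariate, approximate classes alone and each library left out.

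The genes named are, for each comparison, the 5 ON/OFF events and 3 end forms with the smallest p (none was called), the 3 most abundant of each class, and tested members of 4 lists. The result of 1 gene this rule takes in is not reported here. The members and lists were chosen with earlier results of these data known.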

Additional observations from a re-analysis of the deposited data

Results flagged for a closer look

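In the groups of 4 libraries, 16 of 129 groups checked held a library whose gap to its nearest neighbour took up most of the group's range. Chance flags about 1 in 20 such groups. The XIR events listed numbered 838 in FGF1 4, against 818 to 819 in the 3 others. The retained share of Paxx was 18.84% in FGF1 3 (others 29.32 to 31.12%), and the inclusion of the Serping1 exon was 82.11% in DSS 3 (others 97.51 to 100%). H2-T3 stood at 35.22% in control 1 for its intron (others 2.232 to 3.138%) and at 33.79% for the exon end of the same transcript (others 2.231 to 3.123%). Phgr1 had 33.09% in DSS 1 (others 3.022 to 7.214%), the XMIR event of Srsf5 had 5.888% in DSS 1 (others 10.59 to 11.33%), and the exon end of Ckmt1 had 74.99% in control 1 (others 63.89 to 65.54%). The exon end of Actg2 had 97.94% in control 3 (others 99.66 to 99.76%) and 98.87% in FGF1 1 (others 99.69 to 99.75%).

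The remaining values lie beside libraries that are all at 0 or all at 100%, so that any other value stands out. They are the exon end of Pde9a, with 1.016% in control 3 and 0.09382% in DSS 3, that of Hsp90aa1, with 0.05498% in FGF1 3, and the Clca1 run, with 99.95% in DSS 2 and 99.96% in FGF1 4. For Relb it is control 2 that was at 0, against 0.2783 to 0.324% in the other control libraries.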

How the results depend on the processing

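Of 246 values for the answers to comparisons under the alternatives, 229 kept their side of the threshold and 17 went from 0 calls to 1 or 2. In DSS against control, 1 ON/OFF event was called with a mean of 1 FPKM as the filter (Adgra2, -2.40, adjusted p = 0.0402) and with no filter (0.0239), and 1 in the 8 libraries alone (Lamc1, -4.91, 0.0009). Leaving out a library gave 0 to 1 calls: Abhd11 (2.22, 0.0117) without control 3 and Serping1 (-2.999, 0.0259) without DSS 1. In FGF1 against DSS, Vps29 was the 1 call at 0.1 FPKM added, in the 8 libraries alone and without control 3 (0 to 1 over left-out libraries). Among exon ends, 2 forms of Shroom2 were called at either looser filter in DSS against control (2.24) and FGF1 against DSS (-2.36). Leaving out a library gave 0 to 1 calls in DSS against control and in FGF1 against control, H2-T3 without control 1 and Abhd11 without control 3 (2.68 and 2.43). In FGF1 against control the 8 libraries alone called 2 forms of Wdr83. Adgra2, Lamc1, Abhd11 and Shroom2 were named after their values were seen. Of 603 values of named events, 596 kept direction and side, 6 passed the test, and Wdr83 turned to 0.33 with own rows alone. The causes were not tested. At 5 FPKM the class medians were 86.6% for XSKIP, 99.2% for XMSKIP, 58.6% for XIR and 60.5% for XMIR.

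The replicate block gave 0 calls in every comparison. Same-numbered libraries correlated at -0.135 to 0.0891 in their deviations, and libraries of other numbers at -0.121 to 0.0895. The labels do not say whether the numbers pair the libraries, and these correlations cannot settle it. The unknown read depth and 4 libraries a group limit what small differences could be found.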
